A study of Homo sapiens with 4 samples.

Results

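The genes of fatty acid synthesis and desaturation were followed through 10 members chosen by name: *ACLY*, *ACSS2*, *ACACA*, *FASN*, *ELOVL6*, *ELOVL5*, *SCD*, *FADS1*, *FADS2* and *ACSL3*. All 10 have a row among the 31681 genes of the count table, and all 10 were among the 15083 genes tested. RNA was measured in BT549, an established triple-negative breast cancer line with mesenchymal traits, after flow sorting on surface neuropilin 2 (NRP2) into NRP2-high and NRP2-low cells, with 2 libraries of each. No treatment or edit is named for either group, every library was made from 250 ng of total RNA with polyA selection, and how the sort gates were set is not given in the sources used here. No source says that the libraries of a group came from separate cultures or sorts, so a p-value here measures the spread between the deposited libraries alone, and that spread may be technical. Both groups come from a single line, and in bulk samples fewer cells expressing a gene and less RNA per cell cannot be told apart.

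Cells make fatty acids from cytosolic acetyl-CoA, which ATP citrate lyase (ACLY) cuts from citrate and ACSS2 makes from acetate. Acetyl-CoA carboxylase (ACACA) turns it into malonyl-CoA, and fatty acid synthase (FASN) uses both to build palmitate. ELOVL enzymes lengthen the chain, desaturases (SCD, FADS1, FADS2) add double bonds, and ACSL3 joins free fatty acids to coenzyme A so that they can enter membranes and lipid droplets. In many cell types this set is driven by SREBP-1, the product of *SREBF1*, which INSIG proteins hold back in the endoplasmic reticulum when sterols are plentiful.

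Promoters of the members were read from RefSeq (GRCh38.p14), where 9 of 10 members matched by symbol with 14 start sites, *FASN* having no entry. The 250 bases before each start were searched on both strands for the CCAAT box (CCAAT), which binds NF-Y, a known partner of SREBP, for the core of a sterol response element (TCACNCCA), for a GC box (GGGCGG) and for an E-box (CACGTG). No CCAAT box shared a base with a match of another motif, while GC boxes could overlap each other. A CCAAT box was found before 8 of the 14 starts (6 members), against 32.0% of all 35116 RefSeq promoters, and a GC box before 11 of the 14 starts (8 members), against 42.6% of promoters. Starts of 1 gene can share bases, so they are not independent. The sterol response core was found in none of the 14 (3.20% of all promoters) and the E-box only in that of *ELOVL5* (6.34% of all promoters). A match is a description of letters and not a measured binding site. Nor does the lack of 1 exact core within 250 bases show that a gene has no such element. The sequences that follow are the stretches outside annotated exons for *SCD* and *ACLY*, which were lower in NRP2-high cells and hold 2 CCAAT boxes each, for *FADS2*, which had the largest fall and holds none, and for 1 of the 3 starts of *ACACA*, which did not pass the test. That start holds 1 box, and the other starts of *ACACA* hold 2 and 0. They lie at chr10:100346983-100347123 (plus strand), chr17:41919023-41919272 (minus strand), chr11:61816154-61816255 (plus strand) and chr17:37359122-37359346 (minus strand), all in GRCh38.p14 and 5′ to 3′, with the CCAAT box in capitals (ATTGG where it reads on the opposite strand).
*SCD*: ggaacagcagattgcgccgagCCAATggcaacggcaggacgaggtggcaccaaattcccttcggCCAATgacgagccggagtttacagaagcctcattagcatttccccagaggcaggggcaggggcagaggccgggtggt
*ACLY*: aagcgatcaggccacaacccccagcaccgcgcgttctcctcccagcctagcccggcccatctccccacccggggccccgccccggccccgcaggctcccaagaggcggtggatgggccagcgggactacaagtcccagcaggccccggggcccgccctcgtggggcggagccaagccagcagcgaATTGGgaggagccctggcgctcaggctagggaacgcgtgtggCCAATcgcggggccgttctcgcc
*FADS2*: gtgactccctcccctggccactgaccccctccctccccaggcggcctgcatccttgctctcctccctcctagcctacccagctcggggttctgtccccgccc
*ACACA*: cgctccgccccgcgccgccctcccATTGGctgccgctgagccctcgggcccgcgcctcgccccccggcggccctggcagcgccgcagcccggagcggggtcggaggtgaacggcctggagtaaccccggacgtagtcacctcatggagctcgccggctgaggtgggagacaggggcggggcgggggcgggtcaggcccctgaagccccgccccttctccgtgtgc
Boxes of this kind stand before members of every outcome. *ELOVL5*, which was higher in NRP2-high cells, holds 2, and so does *SCD*, which was lower.

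The libraries carried 18165923 to 20585102 counts, so that 3 counts, the limit that a count of 0 allows, equal 0.151 to 0.163 CPM (counts scaled to 1e+06 per library after TMM normalization). *NRP2* was at 141 and 146 CPM in the NRP2-high libraries and at 9.79 and 8.82 CPM in the NRP2-low libraries. The share of counts on genes named MT- was larger in NRP2-high libraries (6.92% and 9.16%) than in NRP2-low libraries (5.57% and 5.85%). The mesenchymal markers *VIM*, *FN1*, *CDH2* and *ZEB1* summed to 5394 and 5648 CPM in NRP2-high and to 2558 and 2555 CPM in NRP2-low cells. Of these 4, *FN1* was higher (log2 fold change 1.85), *CDH2* was lower (-0.59), and *VIM* (0.09) and *ZEB1* (0.13) did not pass. The 5 epithelial markers summed to 12.1 and 14.4 CPM against 6.78 and 6.80 CPM and were also split. *KRT19* was higher in NRP2-high cells (205 and 266 counts against 6 and 7), *KRT8* and *KRT18* were lower (log2 fold changes -2.78 and -3.39), and *EPCAM* and *CDH1* had at most 5 counts in any library. *ESR1* and *PGR* had no matching row in the count table, and *ERBB2* did not pass the test (log2 fold change -0.12). Of 5 adipocyte markers, 3 had a row. They summed to 1.80 to 2.12 CPM in NRP2-high and 4.46 to 5.82 CPM in NRP2-low cells. *PLIN1*, which coats the adipocyte lipid droplet, was at 0 in 3 of 4 libraries and 1 count in the other. *CIDEC* was lower in NRP2-high cells (32 and 18 counts against 93 and 71, log2 fold change -1.67). *FABP4* did not pass (7 and 16 counts against 23 and 13). Leukocyte markers (3 of 4 with a row) summed to at most 1.06 CPM and endothelial markers (2 of 3) to at most 0.722 CPM in any library.

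Of the 10 genes, 6 were lower in NRP2-high cells, 2 were higher and 2 did not pass the test (edgeR's quasi-likelihood test, Benjamini-Hochberg adjusted p under 0.05 over all tested genes). Calls are common in this comparison. Of all tested genes, 56.5% passed, 27.7% as lower and 28.9% as higher in NRP2-high cells. The 6 lower genes were the desaturase genes *FADS2* and *SCD*, with *ACSS2*, *FADS1*, *FASN* and *ACLY*, and their levels were 1.84 to 4.10 times as high in NRP2-low cells. The 2 higher genes, *ELOVL5* and *ACSL3*, differed by 1.27-fold and 1.18-fold. The median log2 fold change was -0.94 over the 10 genes and -0.01 over all tested genes. The groups did not overlap for 8 of the 10 genes, and they did not overlap for 78.2% of all tested genes either, so that count is close to the background.

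**Figure D1:**
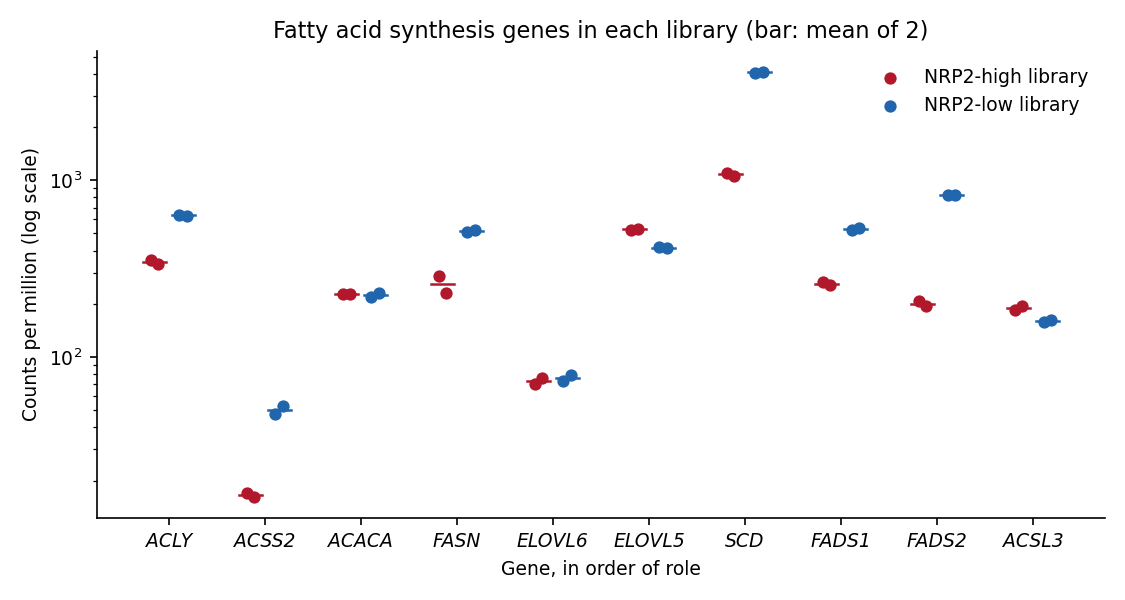
CPM of each gene (log axis) in the NRP2-high libraries (red) and the NRP2-low libraries (blue), with a bar at the mean of 2 libraries. *SCD* stands highest in both groups, at 1077 CPM in NRP2-high and 4062 CPM in NRP2-low cells, whereas the points of *ACACA* and *ELOVL6* overlap between groups.

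Among the genes that supply acetyl-CoA, *ACLY*, the citrate route, was counted at 353 and 336 CPM in the NRP2-high libraries and at 638 and 628 CPM in the NRP2-low libraries. Both NRP2-high libraries lay below both NRP2-low libraries, and the means were 344 ± 11.6 and 633 ± 7.40 CPM (SD, n = 2). The log2 fold change of *ACLY* was -0.88 (standard error 0.05, edgeR adjusted p = 1.17e-07). *ACSS2*, the acetate route, is the least abundant of the 10 genes per length, and it had 312 and 315 counts in NRP2-high against 948 and 988 in NRP2-low libraries. This was 16.98 and 16.2 CPM against 47.6 and 52.5 CPM, with no overlap. *ACSS2* fell by 1.59 on the log2 scale (standard error 0.09, edgeR adjusted p = 6.80e-08) with a 95% interval from -1.78 to -1.40 that did not reach that of *ACLY*, -0.99 to -0.77. The ratio of *ACLY* to *ACSS2* in TPM (a level per gene length on a common library total) was 21.4 in both NRP2-high libraries and 13.8 and 12.3 in the NRP2-low libraries. *ACLY* lies at chr17:41866908-41930542 on the minus strand and *ACSS2* at chr20:34872146-34927962 on the plus strand of hg38, as the count table gives them. The span of *ACSS2* shares 715 bases with that of *GGT7* on the other strand, which also fell (log2 fold change -1.28). In GENCODE v44, the exons of *ACSS2* share 0 bases with those of *GGT7*, the only gene compared.

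The 2 enzymes that build the chain did not move together. *ACACA*, whose product commits acetyl-CoA to fatty acid synthesis, was at 226 and 226 CPM in NRP2-high and at 218 and 230 CPM in NRP2-low cells. Its groups overlapped, and the log2 fold change was 0.01 with a 95% interval from -0.10 to 0.13 (edgeR adjusted p = 0.835), and its sign turned in the TPM and FPKM fits, where it reached -0.14 without passing. *FASN*, the synthase that makes palmitate, was at 286 and 231 CPM in NRP2-high and at 507 and 520 CPM in NRP2-low cells. The NRP2-high libraries of *FASN* lay further apart from each other than those of the other 9 genes, yet both lay below the NRP2-low libraries. *FASN* fell by 0.99 on the log2 scale (standard error 0.08, edgeR adjusted p = 2.09e-06), and leaving out each library in turn gave -1.15 to -0.84. Within a library, *FASN* stood at 1.75 and 1.41 times the TPM of *ACACA* in NRP2-high cells and at 3.23 and 3.14 times in NRP2-low cells. *ACACA* lies at chr17:37084988-37406780 and *FASN* at chr17:82078333-82098332, both on the minus strand.

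The elongases differed from each other as well. *ELOVL6*, which lengthens saturated and monounsaturated chains, was at 70.3 and 76.2 CPM in NRP2-high and at 72.7 and 79.3 CPM in NRP2-low cells. The groups overlapped, and the log2 fold change of *ELOVL6* was -0.05 with a 95% interval from -0.20 to 0.10 (edgeR adjusted p = 0.539). Its sign turned without NRP2-high replicate 1 and without NRP2-low replicate 2, to 0.01 in each. *ELOVL5*, which lengthens polyunsaturated chains made by FADS1 and FADS2, was at 526 and 530 CPM in NRP2-high and at 417 and 413 CPM in NRP2-low cells. These groups did not overlap, and *ELOVL5* rose by 0.35 ± 0.05 on the log2 scale (fold change ± standard error, edgeR adjusted p = 9.91e-05). On the TPM scale, where no TMM factor is applied and the median of all tested genes sits at -0.14 with a pseudocount of 1, *ELOVL5* kept its direction but not its call, with a lowest value of 0.19 over all 17 alternatives. *ELOVL6* lies at chr4:110045846-110199179 and *ELOVL5* at chr6:53267398-53349179, both on the minus strand.

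The desaturase genes *FADS2* and *SCD* had the largest differences of the 10 genes, and *FADS1* differed less than *ACSS2*. *SCD*, which puts the first double bond into stearate and palmitate, had 20115 and 20557 counts in the NRP2-high libraries and 80410 and 76936 in the NRP2-low libraries. In CPM this was 1095 and 1060 against 4036 and 4088. *SCD* fell by 1.91 on the log2 scale (standard error 0.06, edgeR adjusted p = 8.86e-10), a 3.77-fold difference, and the spread within a group was 24.4 CPM (SD, n = 2) in NRP2-high and 36.8 CPM in NRP2-low cells. It took 0.419% and 0.424% of all counts in NRP2-low cells and 0.107% and 0.0999% in NRP2-high cells. By TPM it ranked 23 and 24 among all genes of the NRP2-low libraries and 114 and 124 in the NRP2-high libraries. *SCD* lies at chr10:100347124-100364834 on the plus strand.

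*FADS2*, the first and rate-limiting desaturase of polyunsaturated fatty acid synthesis, was at 206 and 194 CPM in NRP2-high and at 822 and 822 CPM in NRP2-low cells. It had the largest fall of the 10 genes, 2.04 on the log2 scale (standard error 0.05, edgeR adjusted p = 3.85e-10), and 3.13% of tested genes had a lower log2 fold change. *FADS1*, which acts after FADS2 in the same route, was at 265 and 255 CPM against 525 and 539 CPM. It fell by 1.03 on the log2 scale (standard error 0.05, edgeR adjusted p = 2.88e-08), and its 95% interval, -1.15 to -0.92, did not reach that of *FADS2*, -2.15 to -1.92. The TPM ratio of *FADS2* to *FADS1* was 0.724 and 0.708 in NRP2-high libraries and 1.45 and 1.41 in NRP2-low libraries, so their order per length turned between the groups. Both genes lie on chromosome 11, *FADS1* at chr11:61799625-61829318 on the minus strand and *FADS2* at chr11:61792980-61867354 on the plus strand, and their spans overlap. Exons in GENCODE v44 were compared only among *FADS1*, *FADS2* and *FEN1*. Of the exon bases of *FADS1*, 4.79% lie in an exon of another of these genes, and of those of *FADS2*, 5.11%. The libraries are stranded, but the strand setting of the count is not stated, so reads in these shared bases cannot be assigned with certainty. The span of *FADS2* also shares 4253 bases with that of *FEN1* (log2 fold change 0.15). Both lie on the plus strand, so strand does not separate them.

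Within the desaturases, *SCD* took most of the level in every library. Summed over *SCD*, *FADS1* and *FADS2*, the TPM was 866 and 754 in NRP2-high cells against 3231 and 3266 in NRP2-low cells. The share of *SCD* in that sum was 82.1% and 82.3% against 85.7% and 85.7%, and that of *FADS1* was 10.4% and 10.4% against 5.84% and 5.92%. *FADS2* took 7.52% and 7.34% in NRP2-high cells against 8.48% and 8.38% in NRP2-low cells. These are shares of transcripts and not of enzyme activity.

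*ACSL3*, the acyl-CoA synthetase of the endoplasmic reticulum and lipid droplets, was at 185 and 194 CPM in NRP2-high and at 158 and 162 CPM in NRP2-low cells. The groups did not overlap, and *ACSL3* rose by 0.24 ± 0.05 on the log2 scale (fold change ± standard error, edgeR adjusted p = 2.05e-03). This call was the least stable of the 8, since it was lost without NRP2-low replicate 1 (log2 fold change from 0.21 to 0.29 without 1 library at a time) and in the TPM and FPKM fits. *ACSL3* lies at chr2:222860934-222944639 on the plus strand.

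**Figure D2:**
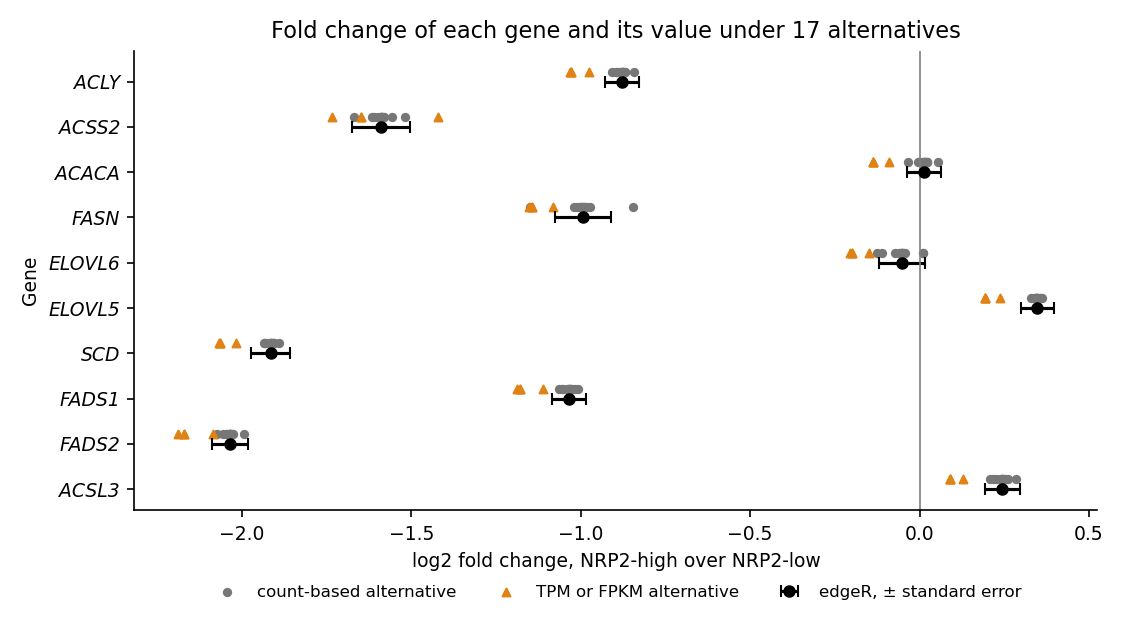
Log2 fold change of each gene, NRP2-high over NRP2-low, from edgeR (black, with standard error) and under 17 alternatives (grey for counts, orange for TPM or FPKM). The 6 lower genes lie left of 0 in every alternative, *ELOVL5* and *ACSL3* lie right of 0, and the TPM and FPKM values lie mostly left of the count values.

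The 6 lower calls and their direction held in all 17 alternatives, among them each library left out, DESeq2, limma-voom and a fit without MT- genes and the 10 most abundant genes. In a test against a 1.5-fold change these 6 passed and *ELOVL5* and *ACSL3* did not. In that test 2805 of the 15083 tested genes passed, 1364 as lower and 1441 as higher. Of all tested genes, 3.50% had a lower log2 fold change than *SCD*, 4.69% than *ACSS2*, 8.63% than *FADS1*, 9.10% than *FASN* and 10.7% than *ACLY*. The genes that did not pass stood near the middle, with 46.4% below *ELOVL6* and 51.6% below *ACACA*. The higher genes stood above it, with 67.2% below *ACSL3* and 73.0% below *ELOVL5*.

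**Figure D3:**
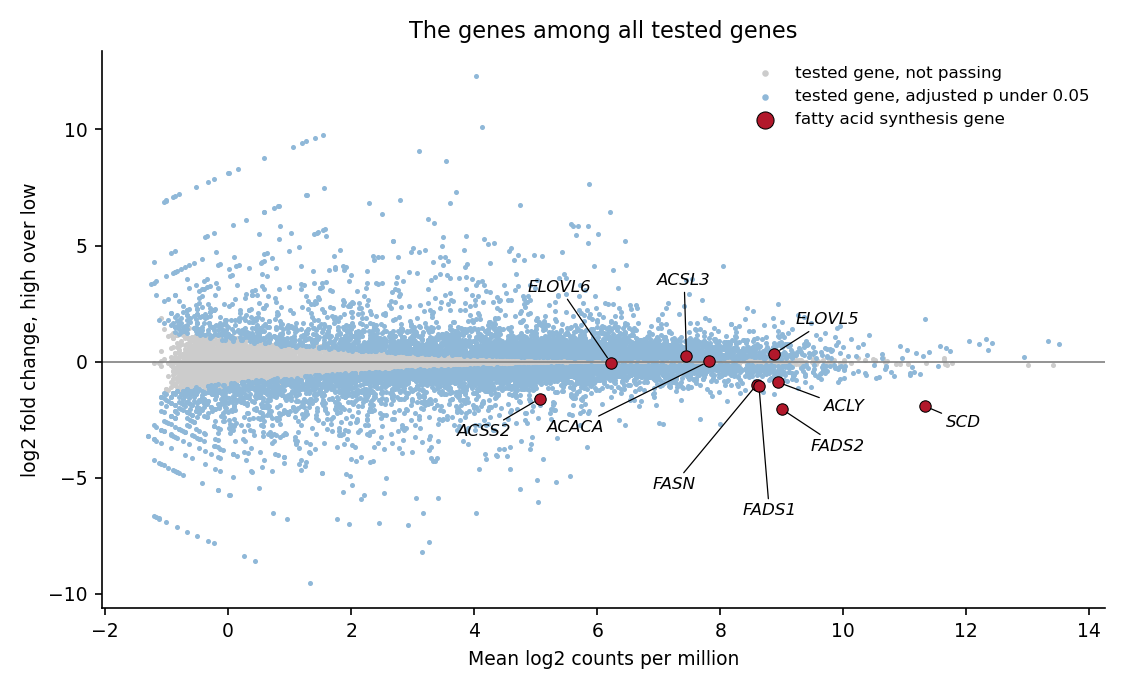
Log2 fold change against mean log2 CPM for the 15083 tested genes (grey: not passing, blue: passing) with the 10 genes in red. *SCD*, the most abundant of the 10, lies at -1.91, and 3.13% of all tested genes lie below *FADS2* at -2.04.

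Per gene length, *SCD* led in both populations, with 665 ± 63.8 TPM in NRP2-high and 2784 ± 21.9 TPM in NRP2-low cells (SD, n = 2). In NRP2-high cells *ELOVL5* came next at 458 TPM, then *ACLY* at 219, *FASN* at 91.7, *ACSL3* at 86.5, *FADS1* at 84.1, *FADS2* at 60.2, *ACACA* at 57.6, *ELOVL6* at 33.1 and *ACSS2* at 10.2 TPM. The libraries of *FASN* and *ACSL3*, of *ACSL3* and *FADS1*, and of *FADS2* and *ACACA* overlapped, so the order within these pairs is not set. In NRP2-low cells *ACLY* at 446 TPM passed *ELOVL5* at 400, and *FADS2* at 274, *FASN* at 202 and *FADS1* at 191 followed, above *ACSL3* at 81.3, *ACACA* at 63.3, *ELOVL6* at 38.3 and *ACSS2* at 34.1 TPM. No neighbours in that order overlapped. The summed TPM of the 10 genes was 1881 and 1651 in NRP2-high and 4494 and 4533 in NRP2-low libraries, and without *SCD* it was 1170 and 1030 against 1725 and 1733. A TPM rests on the gene length in the table, and for *ACSL3* that length is 7240 bases where the exons of GENCODE v44 cover 14436.

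**Figure D4:**
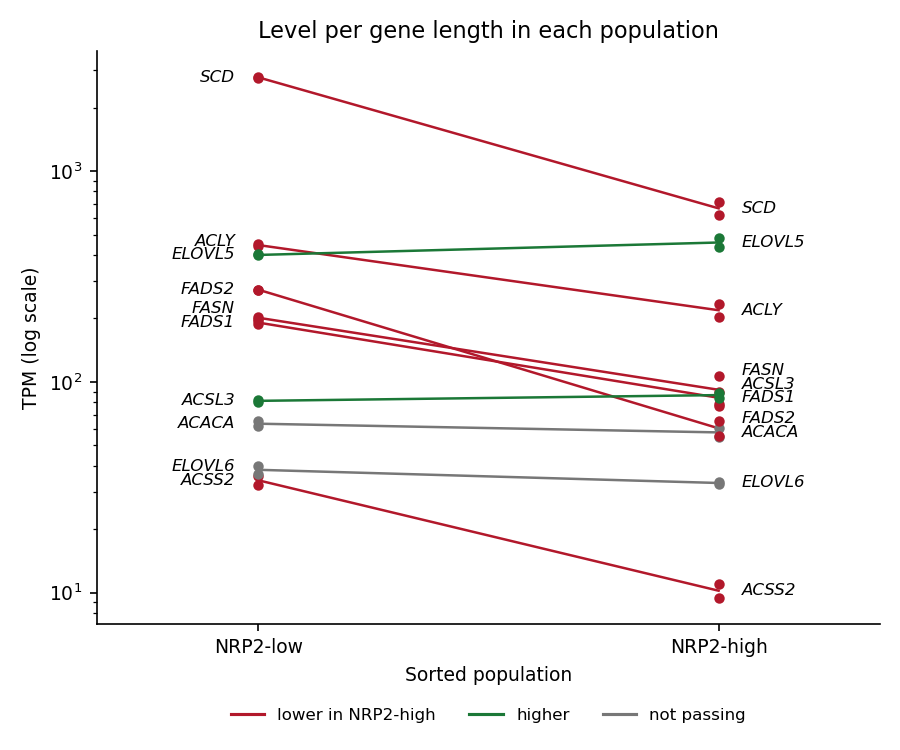
TPM of each gene (log axis) in the NRP2-low libraries (left) and NRP2-high libraries (right), with points for libraries and lines between means. *FADS2* falls from 274 to 60.2 TPM and crosses *FASN*, *FADS1* and *ACSL3*, while *ACLY* and *ELOVL5* change places.

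The genes around the 10 were looked at through 9 lists of related steps, with 100 genes, of which 85 were tested. Of these, 22 were higher, 30 lower and 33 not passing, with a median log2 fold change of -0.03. Among all tested genes 28.9% were higher and 27.7% lower, with a median of -0.01. The counts of each list below are to be read beside these shares. Each of the 9 lists held at least 1 gene that rose and 1 that fell, where 56.5% of all tested genes passed.

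Transcriptional control split by gene. *SREBF1*, which encodes SREBP-1, was at 48.6 and 40.5 CPM in NRP2-high and at 140 and 138 CPM in NRP2-low cells, so that it fell by 1.65 on the log2 scale (± 0.08 standard error, edgeR adjusted p = 2.63e-08). *SREBF2*, which encodes the paralogue that mainly drives cholesterol genes, was at 142 and 132 against 132 and 130 CPM and did not pass (log2 fold change 0.06, 95% interval -0.06 to 0.19, edgeR adjusted p = 0.359), although it passed without NRP2-high replicate 2. *INSIG1*, itself a sterol-regulated target, fell by 1.33 on the log2 scale (edgeR adjusted p = 3.15e-09), from 457 and 460 CPM in NRP2-low to 183 and 182 CPM in NRP2-high cells. *MBTPS2*, the second of the proteases that release SREBP in the Golgi, rose by 1.45 (edgeR adjusted p = 5.60e-09), from 52.9 and 51.2 CPM in NRP2-low to 142 and 142 CPM in NRP2-high cells. The escort gene *SCAP* and the first protease gene *MBTPS1* were higher by 0.29 and 0.34 on the log2 scale, with calls lost in 6 and 4 of 17 alternatives, that of *SCAP* also without NRP2-low replicate 1. *MLX* had a log2 fold change of -0.41. *INSIG2* (-0.27), *NR1H2* (0.00) and *NR1H3* (-0.34), the last 2 encoding liver X receptors, did not pass, *INSIG2* passed without NRP2-high replicate 1, and *MLXIPL*, with 1 count in all libraries together, was not tested. The list thus had 3 genes higher, 3 lower and 4 not passing of 10 tested, with a median of -0.13.

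Genes next to *SREBF1* were also mostly lower. Among the 100 tested genes whose start lies within 5 Mb of that of *SREBF1* on chromosome 17, the median log2 fold change was -0.67, with 64 lower and 3 higher. This window was looked at after the value of *SREBF1* was seen. Around the 10 genes the medians ran from -0.32 (158 genes around *ACLY*) to 0.25 (34 genes around *ELOVL5*). They were -0.30 around *FASN* (91 genes), -0.22 around *SCD* (98 genes), -0.07 around *ACSS2* (94 genes) and 0.04 around *FADS1* and *FADS2* (189 genes). The median around *ELOVL5* was 0.46 within 2 Mb (15 genes), and that around *SREBF1* was -0.73 within 10 Mb (139 genes).

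Other desaturation genes were lower in 3 of 4 tested, with a median of -0.72. *SCD5*, the second human stearoyl-CoA desaturase gene, had 87 and 87 counts in NRP2-high and 968 and 930 in NRP2-low cells, and fell by 3.41 on the log2 scale (edgeR adjusted p = 7.30e-10). *FADS3*, the third gene of the FADS cluster, fell by 1.02. *CYB5R3*, which passes electrons to the desaturases by way of cytochrome b5, moved the other way and rose by 1.08 on the log2 scale, from 106 and 106 CPM in NRP2-low to 217 and 230 CPM in NRP2-high cells. *CYB5A*, which encodes that cytochrome, had a log2 fold change of -0.41, and its call was lost in 4 alternatives. Other elongation enzymes had 4 higher, 4 lower and 2 not passing of 10 tested (median -0.06). *ELOVL7* fell by 4.08 on the log2 scale, from 161 and 156 counts in NRP2-low to 8 and 10 in NRP2-high cells, and *ELOVL4* by 1.23, whereas the dehydratase genes *HACD2* and *HACD1* rose by 0.95 and 0.71.

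Carbon and NADPH supply was split between 4 higher and 5 lower genes of 9 tested (median -0.23). Cytosolic *MDH1* fell by 0.32 on the log2 scale, while *ME1*, the malic enzyme that also makes NADPH, rose by 0.80 and *SLC25A1*, the mitochondrial citrate carrier, by 0.48. Of the carboxylation list, 2 genes were higher, 1 lower and 1 not passing of 4 tested (median 0.34). *ACACB*, the carboxylase isoform at mitochondria, had 24 and 14 counts in NRP2-high and 65 and 65 in NRP2-low cells and fell by 1.73, whereas *MID1IP1*, which promotes assembly of ACACA, rose by 0.71 and *HLCS*, which attaches biotin to carboxylases, by 0.45. *MLYCD*, which degrades malonyl-CoA, did not pass (0.23).

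Of 9 other acyl-CoA synthetase genes tested, 2 were higher, 2 lower and 5 not passing (median 0.18). *ACSL1* rose by 0.64 on the log2 scale, *ACSL4*, which prefers arachidonate, fell by 0.22 with its call lost without NRP2-low replicate 2, and *SLC27A5* fell by 0.94. *ACSF3*, of mitochondrial malonyl-CoA, was 0.33 higher and lost its call in 9 of 17 alternatives, among them the fits without either NRP2-low library. Uptake and binding had 1 higher, 4 lower and 1 not passing of 6 tested (median -0.55), with *FABP5* up by 1.27 on the log2 scale and *DBI*, which binds acyl-CoA, at -0.50. Glycerolipid synthesis and storage had 3 higher, 4 lower and 6 not passing of 13 tested (median 0.01). The phosphatidate phosphatase gene *LPIN1* fell by 1.40, the lipase genes *MGLL* and *PNPLA2* by 1.19 and 1.10, and *ABHD5*, which activates the PNPLA2 lipase, rose by 0.57. Fatty acid oxidation had 2 higher, 4 lower and 14 not passing of 20 tested (median -0.02), with *CPT1C* at -1.67, *ACADVL* at -1.06, *ETFA* at -0.33 and *DECR1* at 1.17.

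**Figure D5:**
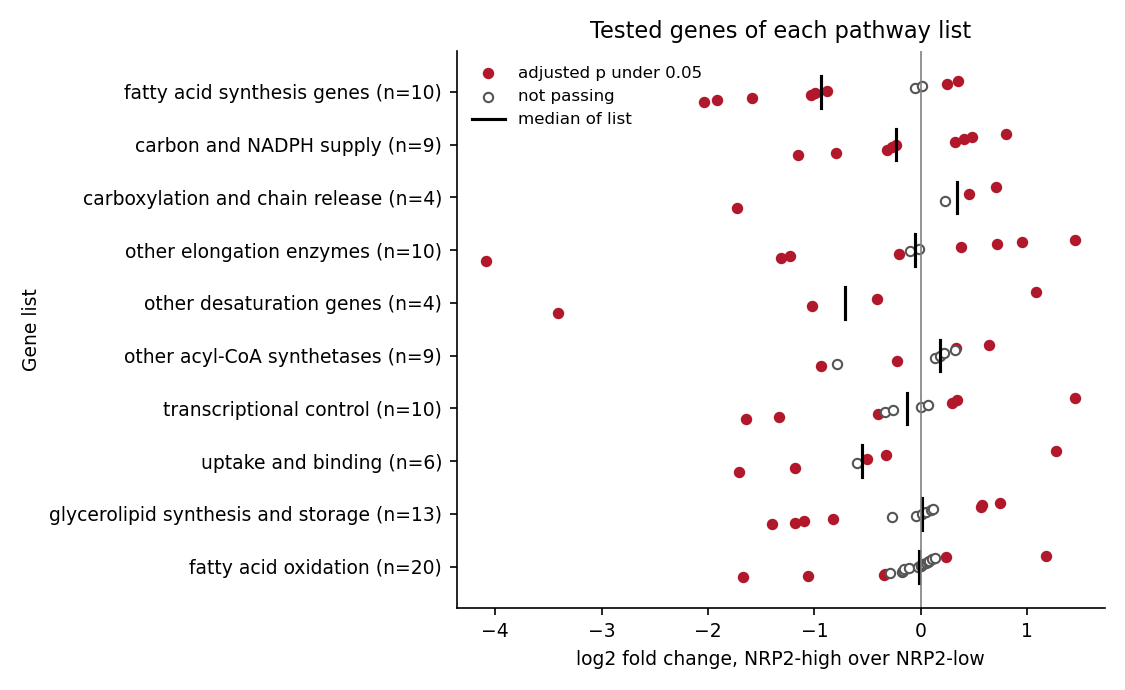
Log2 fold change, NRP2-high over NRP2-low, of every tested gene of the 10 fatty acid synthesis genes and of 9 related lists (filled: adjusted p under 0.05, open: not passing), with a line at the median of each list. The median is -0.94 for the 10 genes, and among the 9 lists it runs from -0.72 (other desaturation genes) to 0.34 (carboxylation).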

How the data were processed

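RNA of 4 libraries of BT549 cells sorted on NRP2, 2 per group, was compared as NRP2-high against NRP2-low, with groups taken from the sample labels. The deposited counts give the fragments in each gene, which the authors made with STAR and featureCounts on hg38 at a mapping quality above 20, without normalization or pooling. The deposited TPM and FPKM values were made by the authors from these counts and the gene lengths of the table, which was checked on the values. The annotation release and the strand setting of the count are not given in the sources used here. The members and the gene lists were chosen with earlier results of these data known.

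After filterByExpr at its defaults and TMM scaling, 15083 genes were tested by the quasi-likelihood F test of edgeR 4.0.16 (R 4.3.3) without a covariate, and called at a Benjamini-Hochberg adjusted p under 0.05. The common biological coefficient of variation was 0.0502, and totals of 18165923 to 20585102 counts limit the precision. CPM used TMM-scaled library sizes, SD were taken over 2 libraries, each standard error was derived from the fold change and its F statistic, and intervals are 95%. On raw library totals, libraries of a group differed by more than sampling noise, with a chi-square per gene of 10.6 between the NRP2-high and 1.60 between the NRP2-low libraries. These values apply no TMM factor, so they include differences that TMM scaling would remove. Named genes were the 10 members, up to 4 genes with the smallest adjusted p of each list, and all genes of transcriptional control. *NRP2* and the markers were named too, and *GGT7* and *FEN1* were named after their values were seen. Some genes that this rule takes are not reported here by name. Exon overlaps came from GENCODE v44, compared only with genes whose spans overlap in the count table, and promoters from RefSeq. The 17 alternatives were DESeq2 1.42.0, limma-voom (limma 3.58.1), RLE factors, no filter on counts, at least 50 counts in 2 libraries, a replicate block, each library left out, no MT- and 10 most abundant genes, limma on log2 TPM (pseudocounts 1 and 0.1, and 1 without a filter) and log2 FPKM (pseudocount 1), an adjusted p under 0.01 and a test against 1.5-fold.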

Additional observations from a re-analysis of the deposited data

How the results depend on the processing

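The 6 lower fatty acid genes stayed 6 under all 17 alternatives, and none of the 10 genes or the named genes of the 9 lists that had a call changed sign. The labels share replicate numbers, but same-numbered libraries showed no shared deviation (correlation -0.00071). With 2 libraries per group this cannot decide whether the numbers pair them, and no source used here says so. With a replicate block 8880 genes were called against 8529 (4354 higher, 4175 lower), with 8 fatty acid genes and 53 against 52 genes of the 9 lists (22 higher, 30 lower). TPM and FPKM moved the balance of calls toward lower genes. Higher and lower calls numbered 2594 and 4628 with log2(TPM + 1), 2556 and 4545 with log2(TPM + 0.1), and 3200 and 4755 with log2(FPKM + 1), with a median of all tested genes of -0.14, -0.16 and -0.07 against -0.01. Higher fatty acid genes numbered 0 in each TPM fit and 1 in FPKM, and higher genes of the lists 12 with either pseudocount in TPM. With log2(TPM + 1) and no filter, 4577 genes were called, 1760 of them higher, with 34 genes of the lists, 9 of them higher. Against 1.5-fold, 2805 genes were called (1441 higher, 1364 lower), with 0 higher fatty acid genes and 26 genes of the lists (8 higher, 18 lower). Without 1 library at a time, 1 to 2 fatty acid genes were higher and 6381 to 9474 genes were called. When 1 library is left out, the lone library of that group is assumed to vary like the others. Both log2 values of *ACACB* and *ELOVL7* rest on few counts in NRP2-high cells, so their size depends on depth. Among medians of neighbouring genes, that around *ACSL3* was -0.09 within 5 Mb and 0.07 within 2 Mb. The cause of these changes was not tested.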
